A study of Mus musculus with 18 samples.

Results

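Weak meiotic recombination hotspots of the mouse that carried DMC1 but overlapped no listed H3K4me3 interval were described. The authors' deposited DMC1 list held 9132 sites common to spermatocytes of all 3 genotypes (B6, Ewsr1 CKO, Prdm9 het), of which 8744 were autosomal. A site was called weak when its B6 value lay below 24.6 RPM (reads scaled to library size), the lower quartile of the autosomal B6 values, which left 2172 sites. Of these, 1439 shared no base with any interval of the authors' list of H3K4me3 sites common to B6 and Ewsr1 CKO, and they are called the weak unlisted sites here. They made up 16.5% of the autosomal sites. The other 733 weak sites overlapped a listed H3K4me3 interval and served as the nearest comparison, as the weak listed sites. The members were thus chosen by DMC1 in B6 and by the H3K4me3 listing, and both are given below as descriptions and support nothing.

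DMC1 is the recombinase that loads onto the resected single strands of meiotic double-strand breaks, so its ChIP-seq signal at a site reflects how often breaks form there and how long DMC1 stays. In mice the breaks are placed by PRDM9, a zinc finger methyltransferase that binds DNA through its finger array and trimethylates H3K4 and H3K36 on the nucleosomes next to it. H3K4me3 is also found at active promoters, where other methyltransferases place it. EWSR1 is an RNA- and DNA-binding protein of the FET family.

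Each value came from a group of spermatocytes taken at 14 days post-partum, with 2 samples per group. B6 was the inbred strain C57BL/6J. Ewsr1 CKO was a conditional knockout of Ewsr1 made with Stra8-iCre, a recombinase under a promoter active in male germ cells around meiotic entry, so cells outside that lineage keep the gene. Prdm9 het was Prdm9+/-, animals with 1 remaining functional copy. H3K4me3 came from Ewsr1 CKO alone, and the 10 other samples of the 18 in the series were not analysed here. Whether mice were pooled, and whether the strain background of the mutants matched B6, is not given in the sources used here. The files gave 1 value per group and site, with no replicate error, so every comparison below is between single values and no test was possible.

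Over all listed sites the values summed to 867788.5 RPM for B6 and 153235.2 RPM for Prdm9 het, a ratio of 5.66, while B6 and Ewsr1 CKO had sums that differed by a factor of 0.999964. Ratios between genotypes were therefore taken after each column was brought to the B6 sum, as log2 of values with 1 RPM added, which understates the change of low sites. A difference in total signal between genotypes cannot be seen on this scale. The sums include the X chromosome. Autosomal sites held 82.2% of the B6 sum, 88.2% of the Ewsr1 CKO sum and 88.8% of the Prdm9 het sum. The autosomal ratios over B6 are thus higher than equal autosomal sums would give. All B6 and Ewsr1 CKO values were whole multiples of 0.129 and 0.246 RPM, within 0.05 of a step. If a step is 1 read, which the authors do not state, the weak unlisted sites held 39 to 190 reads in B6 (median 128) and 12 to 296 in Ewsr1 CKO (median 86). The depth behind the Prdm9 het and H3K4me3 values is unknown.

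A few of the weak unlisted sites lay at gene starts, and their H3K4me3 ran from 0.168 to 7.44 RPM. The 250 bases before the start are shown for 6 genes whose promoter window lay wholly inside a weak unlisted site, the 3 richest and the 3 poorest in H3K4me3, to show how different these sites were in CG content. The genes were chosen after their values had been seen. Sequences are from RefSeq on GRCm38.p6, 5′ to 3′ on the strand of the gene, with each CG in capitals.
Sh3bgrl3: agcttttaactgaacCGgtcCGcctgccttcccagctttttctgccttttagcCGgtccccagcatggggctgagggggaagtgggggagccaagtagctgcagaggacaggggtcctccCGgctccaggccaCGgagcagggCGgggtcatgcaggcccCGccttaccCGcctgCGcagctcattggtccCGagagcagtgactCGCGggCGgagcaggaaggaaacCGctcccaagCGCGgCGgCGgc
Gm34557: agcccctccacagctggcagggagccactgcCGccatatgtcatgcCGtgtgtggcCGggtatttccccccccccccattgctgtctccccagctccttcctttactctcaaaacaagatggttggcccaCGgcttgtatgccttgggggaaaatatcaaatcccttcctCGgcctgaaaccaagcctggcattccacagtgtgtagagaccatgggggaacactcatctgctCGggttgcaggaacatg
Dnaaf2: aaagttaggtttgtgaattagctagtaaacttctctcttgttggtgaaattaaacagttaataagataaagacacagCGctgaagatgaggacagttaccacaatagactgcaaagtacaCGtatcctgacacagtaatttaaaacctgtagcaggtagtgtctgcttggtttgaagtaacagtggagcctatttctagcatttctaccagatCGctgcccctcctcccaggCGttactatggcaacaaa
Vmn1r204: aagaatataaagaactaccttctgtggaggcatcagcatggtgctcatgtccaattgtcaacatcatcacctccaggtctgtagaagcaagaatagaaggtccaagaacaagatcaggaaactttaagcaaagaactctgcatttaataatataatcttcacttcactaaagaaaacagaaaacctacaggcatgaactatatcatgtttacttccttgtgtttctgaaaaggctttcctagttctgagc
Olfr32: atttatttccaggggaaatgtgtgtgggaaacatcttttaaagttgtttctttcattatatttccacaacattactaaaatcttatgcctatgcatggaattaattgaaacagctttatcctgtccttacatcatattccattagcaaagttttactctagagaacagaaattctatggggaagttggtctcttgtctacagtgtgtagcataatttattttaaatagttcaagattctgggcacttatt
Vmn1r235: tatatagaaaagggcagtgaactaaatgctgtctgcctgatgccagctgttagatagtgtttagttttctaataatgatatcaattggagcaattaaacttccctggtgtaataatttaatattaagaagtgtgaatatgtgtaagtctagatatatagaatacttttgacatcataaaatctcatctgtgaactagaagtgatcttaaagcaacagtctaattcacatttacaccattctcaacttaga

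The first 3 sequences had the most H3K4me3. The Sh3bgrl3 window lay at chr4:134128734-134128983 on the minus strand, held 18 CG and belonged to a site with 6.64 RPM of H3K4me3. The product of Sh3bgrl3 is a small protein with a thioredoxin-like fold. The window of the lncRNA gene Gm34557, at chr13:53935284-53935533 on the minus strand, held 6 CG and lay in a site with 5.12 RPM. The window of Dnaaf2, which encodes an assembly factor of axonemal dynein arms, lay at chr12:69198430-69198679 on the minus strand with 4 CG and 4.66 RPM. The other 3 sequences held 0 CG and belonged to chemosensory receptor genes. They were the pheromone receptor genes Vmn1r204 (chr13:22555951-22556200, plus strand) and Vmn1r235 (chr17:21260177-21260426, plus strand) and the odorant receptor gene Olfr32 (chr2:90142294-90142543, minus strand). Their sites held 0.240, 0.168 and 0.216 RPM of H3K4me3, in that order. Receptor genes of these families have near-identical copies, and how reads were shared among copies was not tested. Across all 31628 autosomal promoter windows of the RefSeq table the median was 6 CG in the same 250 bases, with quartiles of 2 and 16.

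The weak unlisted sites carried about as much DMC1 as the weak listed sites in B6 and in Ewsr1 CKO and less in Prdm9 het. Their median in B6 was 16.5 RPM, with quartiles of 12.4 and 20.3 RPM and a range of 5.02 to 24.4 RPM. In Ewsr1 CKO the median was 21.1 RPM, with quartiles of 14.7 and 27.3 RPM and a range of 2.95 to 72.7 RPM. In Prdm9 het the median was 2.54 RPM, with quartiles of 1.71 and 3.57 RPM and a range of 0.0623 to 33.0 RPM. The weak listed sites had medians of 17.4, 22.3 and 3.45 RPM in the same order of genotypes. The weak listed median exceeded the weak unlisted one 1.05-fold in B6, 1.06-fold in Ewsr1 CKO and 1.36-fold in Prdm9 het. The sites of the 2 sets overlapped over most of their range in every genotype. Over all autosomal sites the medians were 47.3, 56.0 and 9.02 RPM.

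Low Prdm9 het values took up a larger share of the sites without listed H3K4me3. Of the weak unlisted sites, 121 (8.41%) lay below 1 RPM in Prdm9 het, against 38 (5.18%) of the weak listed sites. Below 2 RPM the shares were 33.4% and 19.4%. None of the weak unlisted sites was at 0 in Prdm9 het. As a share of the autosomal DMC1 signal, the weak unlisted sites took 3.27%, 4.15% and 2.997% in the 3 genotypes. The weak listed sites took 1.73%, 2.20% and 1.998%. The Prdm9 het share was thus the lowest of the 3 genotypes at the weak unlisted sites and was above the B6 share at the weak listed sites.

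**Figure D1:**
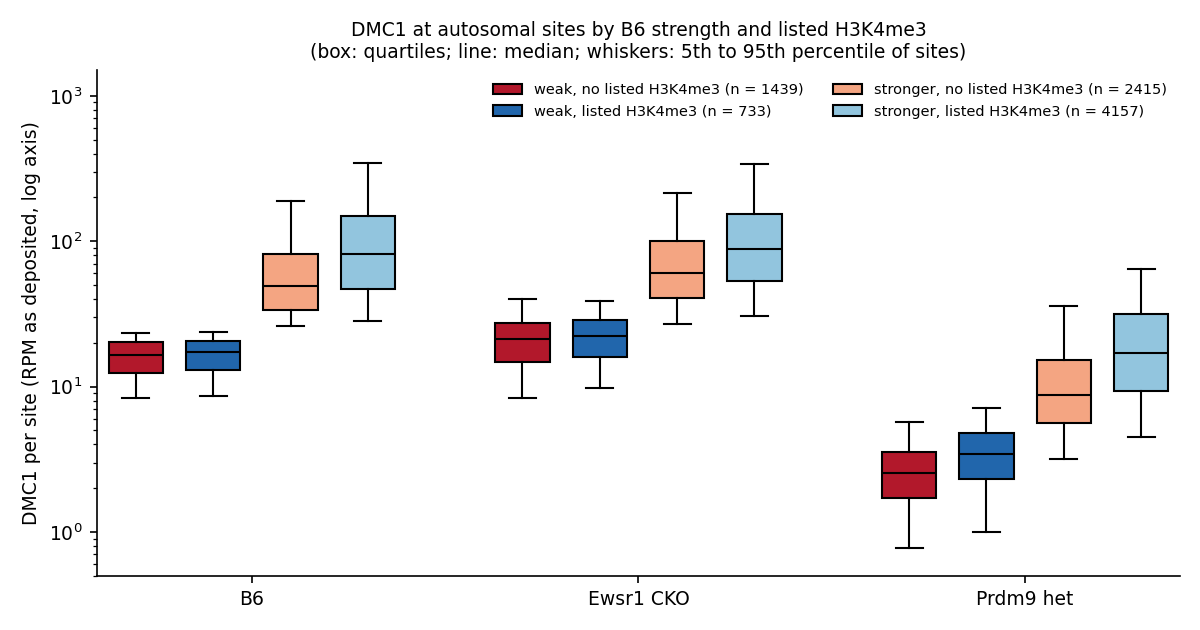
DMC1 per autosomal site in RPM as deposited (log axis) by genotype, for 4 classes of sites. Boxes give quartiles over sites, lines the median and whiskers the 5th to 95th percentile; the weak unlisted sites (1439) sit beside the weak listed ones (733) in B6 and Ewsr1 CKO and below them in Prdm9 het, at medians of 2.54 against 3.45 RPM.

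Ewsr1 CKO had more DMC1 than Prdm9 het, relative to each column's sum, at a larger share of the weak unlisted sites than of the weak listed sites or of all autosomal sites. This ratio does not use the B6 value that chose the sites. Its median was 0.47 on the log2 scale, and 1160 of the 1439 sites (80.6%) lay above 0, against 472 (64.4%) of the weak listed sites and 59.0% of all autosomal sites. Past 2-fold, 294 sites (20.4%) were higher in Ewsr1 CKO and 13 (0.903%) were lower, where 8.43% and 3.05% of all autosomal sites were past 2-fold in those directions. At the weak listed sites the median was 0.21, with 65 sites (8.87%) past 2-fold higher and 21 (2.86%) lower. The weak listed share was close to that of all autosomal sites, and the weak unlisted share was above both. The median over all autosomal sites was 0.13.

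The ratios over B6 are descriptions, because a low B6 value chose the sites, and both share the B6 column. For Ewsr1 CKO over B6 the weak unlisted sites had a median of 0.32, and 131 (9.10%) were past 2-fold higher and 4 (0.278%) past 2-fold lower, where all autosomal sites gave 4.69% and 0.457%. The weak listed sites had a median of 0.37, with 56 (7.64%) past 2-fold higher and 6 (0.819%) lower. For Prdm9 het over B6 the weak unlisted sites had a median of -0.14, with 40 (2.78%) past 2-fold higher and 122 (8.48%) lower, where all autosomal sites gave 3.74% and 4.31%. Without the lowest quartile of the weak unlisted sites by mean DMC1 this median was -0.05. The weak listed sites had a median of 0.19 for Prdm9 het over B6, with 54 (7.37%) past 2-fold higher and 34 (4.64%) lower. With and without listed H3K4me3, the weak sites thus differed by -0.33 for Prdm9 het over B6 and by -0.05 for Ewsr1 CKO over B6 (weak unlisted minus weak listed).

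**Figure D2:**
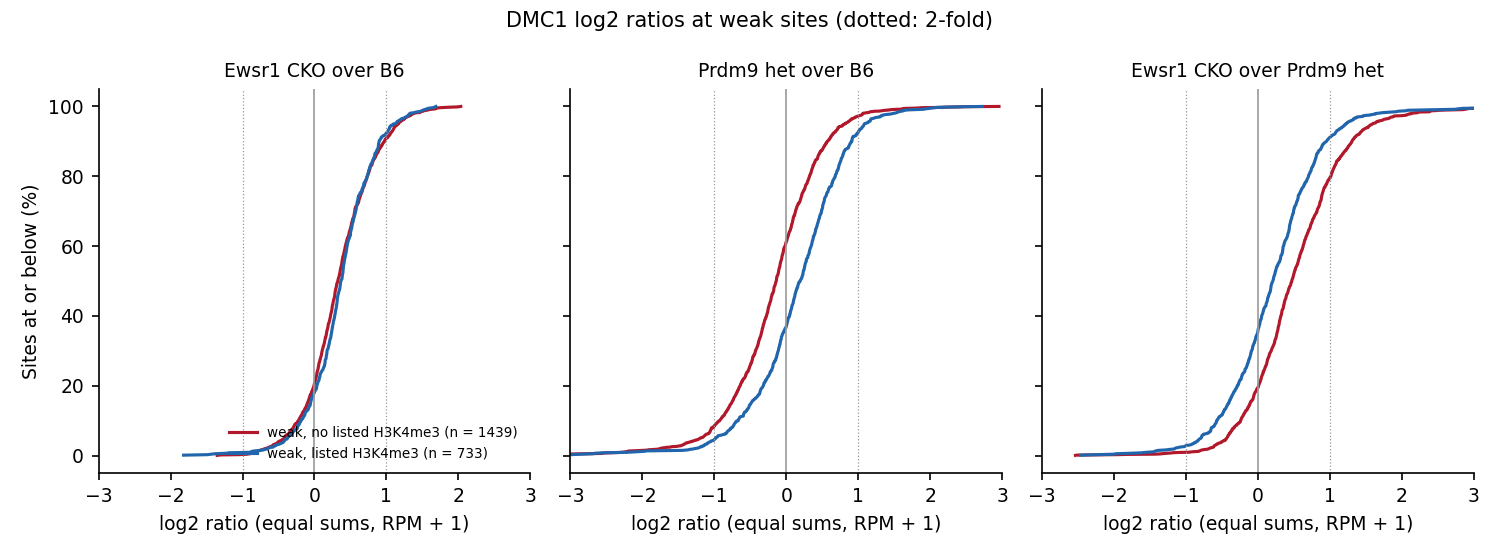
Cumulative share of weak sites (%) against the log2 DMC1 ratio (columns scaled to equal sums, 1 RPM added) for the 3 pairs of genotypes; the solid vertical line marks 0 and the dotted lines 2-fold. The curves of the weak unlisted (1439) and weak listed sites (733) run close together for Ewsr1 CKO over B6 and apart for the other pairs, where the medians are -0.14 against 0.19 and 0.47 against 0.21.

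How the columns were scaled set where the ratios centred. With columns brought to equal autosomal medians, the median over all autosomal sites moved by -0.24 for Ewsr1 CKO over B6, -0.11 for Prdm9 het over B6 and -0.13 for Ewsr1 CKO over Prdm9 het. The weak unlisted medians were then 0.09, -0.24 and 0.35, with 59.5%, 31.6% and 73.3% of the sites above 0. All autosomal sites then had 43.2%, 47.3% and 49.9% above 0. For Ewsr1 CKO over B6, 55 weak unlisted sites (3.82%) were then past 2-fold higher and 19 (1.32%) lower, with 1.93% and 1.24% of all autosomal sites. For Prdm9 het over B6 it was 27 (1.88%) higher and 151 (10.5%) lower, with 2.29% and 5.26% of all autosomal sites. Past 2-fold for Ewsr1 CKO over Prdm9 het were then 15.1% of the weak unlisted and 6.55% of the weak listed sites, with 6.26% of all autosomal sites. Relative to the median of all autosomal sites, the weak unlisted median lay 0.34 higher for Ewsr1 CKO over Prdm9 het and 0.21 lower (difference -0.21) for Prdm9 het over B6. On the columns as deposited, where the added 1 RPM meets Prdm9 het values 5.66 times smaller than after scaling, these differences from all autosomal sites were 0.09 and 0.02, so the second changed sign, and 99.9% of the weak unlisted sites lay below 0 for Prdm9 het over B6. Rescaling a column shifts the log2 ratios of all sites alike, apart from the added 1 RPM. The difference between weak unlisted and weak listed sites could thus change only through that 1 RPM. That it kept its direction for both ratios that hold Prdm9 het is no separate check.

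The 2 sets of weak sites were close, but not equal, in B6 level and width, so the ratios were also set side by side within groups of like sites. The weak unlisted intervals had a median width of 2032 bp and the weak listed ones 2064 bp. In each of 4 groups of rising B6 DMC1 the weak unlisted median lay above the weak listed one for Ewsr1 CKO over Prdm9 het, by 0.19 to 0.40. For Prdm9 het over B6 it lay below in all 4 groups, with differences of -0.48 to -0.27. In groups by width the differences were 0.16 to 0.28 and -0.35 to -0.29, and in groups by distance to a stronger site they were 0.16 to 0.31 and -0.37 to -0.26. For Ewsr1 CKO over B6 the differences were -0.07 to -0.01 by B6 level, -0.15 to -0.002 by width and -0.09 to -0.03 by distance. Among stronger sites, those without listed H3K4me3 (2415) had a median of 0.28 for Ewsr1 CKO over Prdm9 het and those with it (4157) a median of -0.09, a difference of 0.36.

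Read sampling covers part of the spread between weak unlisted sites for Ewsr1 CKO over B6, the one pair whose step is known. If a step is 1 read, the sampling error of a site's log2 ratio had a median of 0.20, while the spread over the weak unlisted sites, taken from the quartiles as a standard deviation, was 0.44. The sampling error covers counting error only, since reads of amplified libraries are not independent molecules.

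Single weak unlisted sites with large differences between genotypes were named. They were taken, by the rule for named sites, from the members with the higher mean over the 3 scaled columns. A site can pass that limit, or miss it, through 1 genotype alone, so the extremes named depend on it. Among these members, the highest ratio of Ewsr1 CKO over B6 was at chr19:26089680-26091548. It lay 411 kb from Dmrt2, a gene for a DM-domain transcription factor of somite development. B6 had 14.7 RPM of DMC1 there, Ewsr1 CKO had 62.4 RPM and Prdm9 het had 4.74 RPM, which gave a log2 ratio of 2.02 for Ewsr1 CKO over B6. The next were chr1:111735691-111737387, with 14.0, 58.4 and 2.20 RPM, and chr17:20324448-20326324, with 13.6, 53.0 and 1.85 RPM. These 3 head the ranking by that ratio, so their direction is fixed by the choice, and all 3 were below the B6 median of the weak unlisted sites. All 3 lay outside protein-coding genes, as did 51.5% of all weak unlisted sites. Over all weak unlisted sites this ratio ran from -1.35 to 2.03. Among the sites the rule considered, the lowest ratio was -0.86 on the log2 scale, at chr13:113468786-113471583. B6 had 23.1 RPM there, Ewsr1 CKO 12.3 RPM and Prdm9 het 3.30 RPM. A site inside Lepr, the leptin receptor gene, at chr4:101752116-101754106, had 21.7, 13.0 and 3.60 RPM, a ratio of -0.70.

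The sites at the ends of the ratios that hold Prdm9 het were named in the same way. Inside Supt3, which encodes a subunit of the SAGA coactivator complex, the site at chr17:44998983-45001157 reached 23.1 RPM in B6 against 31.7 RPM in Ewsr1 CKO and 33.0 RPM for Prdm9 het. Prdm9 het was thus highest there even in the values as deposited, though whether those columns share a denominator is not stated. After scaling, the log2 ratio of Prdm9 het over B6 was 2.96. Its H3K4me3, 0.440 RPM, was near the median of the weak unlisted sites. A site inside Ube2h, the gene of a ubiquitin-conjugating enzyme, at chr6:30251551-30253354, had 12.3, 17.9 and 12.9 RPM and a ratio of 2.47. It was below the weak unlisted medians in B6 and Ewsr1 CKO and met the limit on the mean through its Prdm9 het value. At the other end, chr9:85667350-85669470, 17.9 kb from Ibtk, had 20.8 RPM in B6, 39.5 RPM for Ewsr1 CKO and 0.171 RPM for Prdm9 het. That site had the lowest ratio of Prdm9 het over B6 (-3.47) and the highest of Ewsr1 CKO over Prdm9 het (4.36) among the sites the rule considered. The site at chr15:14254066-14256150 had 24.2, 39.0 and 0.788 RPM, and the site inside C2cd5 at chr6:143021705-143023484 had 21.7, 28.7 and 1.32 RPM. With 1 value per genotype, none of these departures has a replicate check.

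The B6 limit had no gap around it. Just inside, 6 weak unlisted sites tied at 24.4 RPM in B6, and which of the tied sites are named has no meaning. Among them were chr1:79794100-79796591 (within Serpine2, the gene of a serine protease inhibitor), chr1:159433585-159435986 and chr11:12606333-12608282. Their Ewsr1 CKO values were 29.0, 27.0 and 47.4 RPM and their Prdm9 het values 3.55, 3.00 and 9.13 RPM. Just outside, 11 unlisted sites tied at 24.6 RPM in B6, and 3 of them, within Nipal2, Clip4 and Ltbp1, had 31.7, 38.1 and 22.3 RPM in Ewsr1 CKO and 7.39, 2.99 and 2.90 RPM in Prdm9 het. The lowest member in B6, at chr1:64759166-64760300, had 5.02 RPM there, with 7.12 RPM for Ewsr1 CKO and 0.836 RPM for Prdm9 het.

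Residual H3K4me3 in Ewsr1 CKO was low at most weak unlisted sites and high at a few. The listing that chose the sites was made partly with this group, so the low level is a description. The median was 0.477 RPM, with quartiles of 0.350 and 0.625 RPM and a range of 0.0693 to 7.44 RPM. The weak listed sites had a median of 0.902 RPM, and 124 of the weak unlisted sites (8.62%) lay at or above that. Stronger sites without listed H3K4me3 had 0.591 RPM. Per 1000 bp of interval the weak and the stronger unlisted sites lay close together, with medians of 0.236 and 0.234 RPM.

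The excess of Ewsr1 CKO over Prdm9 het was larger where less H3K4me3 was left. Over 4 groups of rising H3K4me3 the median log2 ratio of the weak unlisted sites was 0.64, 0.47, 0.41 and 0.36. The shares past 2-fold higher were 28.8%, 20.6%, 20.1% and 12.2%. The groups also differed in other ways: B6 DMC1 had medians of 13.5, 16.8, 17.2 and 17.7 RPM, and interval width rose from 1753 to 2190.5 bp between the end groups, and the part of these in the ratio was not tested. Among the weak listed sites the same split gave 0.42, 0.24, 0.18 and -0.005. Across the 1439 weak unlisted sites Spearman's rho between H3K4me3 and this ratio was -0.16, and across the 733 weak listed sites it was -0.27. Those points share their libraries and the Ewsr1 CKO genotype.

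At the 28 weak unlisted sites with 2 RPM of H3K4me3 or more, the medians of the ratios that hold Prdm9 het had the opposite sign to those of all weak unlisted sites. Their median for Ewsr1 CKO over Prdm9 het was -0.38 (log2), against 0.47 over all weak unlisted sites, and that of Prdm9 het over B6 was 0.69, against -0.14. Ewsr1 CKO over Prdm9 het lay below 0 at 19 of the 28, and was past 2-fold lower at 4 and higher at 1. Of all autosomal sites 41.0% lay below 0, 3.05% were past 2-fold lower and 8.43% higher. Prdm9 het over B6 was past 2-fold higher at 11 of the 28, where 3.74% of all autosomal sites were. The limit of 2 RPM was set after the values had been seen, and without these sites the medians over the weak unlisted sites were 0.48 and -0.15. The highest H3K4me3, 7.44 RPM, was at chr9:44134613-44136744, at the start of Mcam, a cell adhesion molecule of the immunoglobulin superfamily, and of the neighbouring Gm10687. Its DMC1 values were 20.7 RPM for B6, 18.2 RPM for Ewsr1 CKO and 16.8 RPM for Prdm9 het, giving a log2 ratio of -2.33 for Ewsr1 CKO over Prdm9 het. The second, 6.66 RPM, was in the pseudogene Pisd-ps2 at chr17:3081051-3082895, where DMC1 was 21.1, 17.2 and 2.42 RPM and that ratio was 0.30. The third was the Sh3bgrl3 site shown above, at chr4:134128436-134130556, with 18.005, 35.8 and 5.74 RPM and a ratio of 0.14. Of these 3 sites, Prdm9 het came near the unscaled B6 value at the Mcam site and not at the others.

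Promoter windows of 300 bases, from 250 before to 50 after a RefSeq gene start, touched 28 of 1396 weak unlisted sites (2.01%). The share was near that of all autosomal sites, 164 of 8415 (1.95%). Windows also touched 18 of 715 weak listed sites (2.52%) and 69 of 5299 listed H3K4me3 intervals (1.30%). The window table held no chromosome 18, so the 43 weak unlisted sites there were not counted. Of the 28 sites, 7 had 2 RPM of H3K4me3 or more, at the starts of Mcam and Gm10687, Sh3bgrl3, Homer3, Gm34557, Dnaaf2, Gm35933 and Gm38984. Their Prdm9 het values ran from 2.52 to 19.5 RPM, their median log2 ratio of Prdm9 het over B6 was 1.06, and 4 were past 2-fold higher, where 3.74% of all autosomal sites were. The other 21 had a median of -0.35 for that ratio, and weak unlisted sites at no promoter window had -0.15. Among the latter, 20 sites had 2 RPM of H3K4me3 or more. Their median for that ratio was 0.42, and 6 were past 2-fold higher.

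The promoter sites with high H3K4me3 did not all have high Prdm9 het values. At the Gm34557 site (chr13:53933509-53935752) DMC1 was at 19.9, 18.2 and 19.5 RPM (B6, Ewsr1 CKO, Prdm9 het). The Dnaaf2 site (chr12:69197970-69199535) had 15.9, 22.1 and 6.07 RPM, and the Gm35933 site (chr15:76987452-76989032) had 10.7, 12.3 and 6.17 RPM. The Homer3 site, at the start of a gene for a postsynaptic scaffold protein (chr8:70283023-70285527), had 14.8, 17.9 and 2.52 RPM with 5.90 RPM of H3K4me3. Of the 30 windows at weak unlisted sites, the 9 at sites with 2 RPM of H3K4me3 or more held 4 to 27 CG and the 21 others held 0 to 6. At the receptor genes shown above, the DMC1 values in the same order were 14.8, 24.6 and 1.72 RPM for Vmn1r204. It was 13.9, 17.4 and 2.48 RPM for Olfr32 and 11.1, 24.3 and 3.22 RPM for Vmn1r235. A window of another receptor gene, Vmn1r193, lay partly inside the site at chr13:22219928-22221434, which had 10.3, 8.35 and 0.427 RPM. Ewsr1 CKO was thus above B6 at 3 of the 4 receptor sites, where 79.2% of all weak unlisted sites lay above 0 for that ratio.

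**Figure D3:**
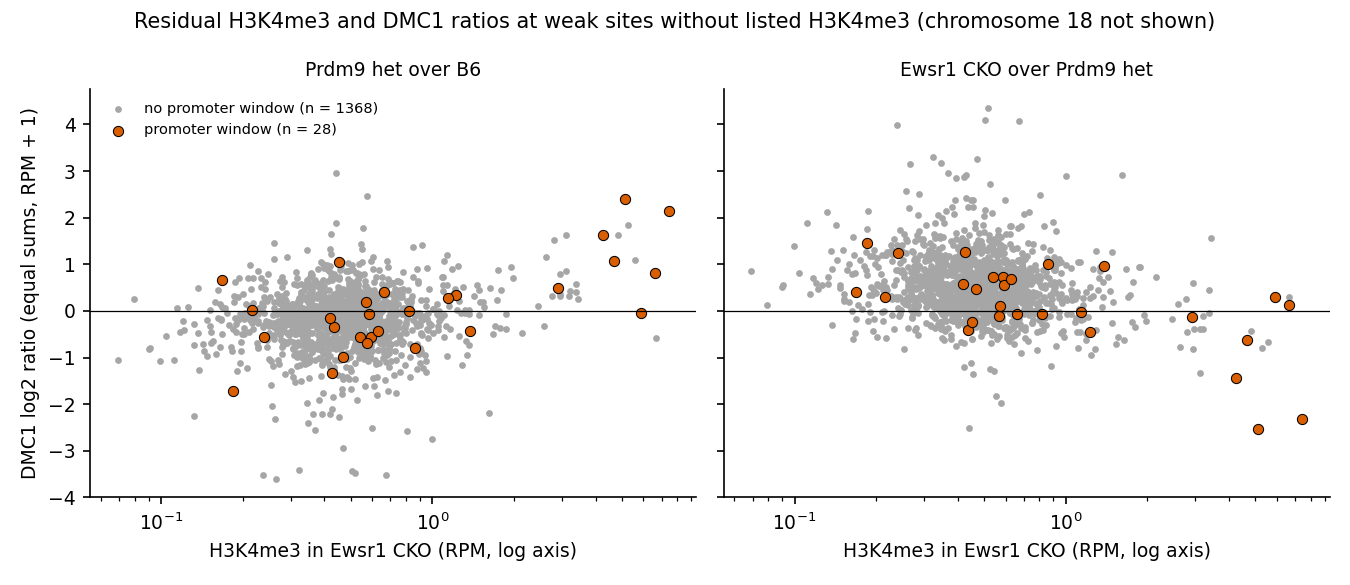
Log2 DMC1 ratio (columns scaled to equal sums, 1 RPM added) against H3K4me3 in Ewsr1 CKO (RPM, log axis) for weak unlisted sites, with chromosome 18 left out. Grey points are 1368 sites at no promoter window and orange points the 28 at one. With chromosome 18 counted, 28 weak unlisted sites had 2 RPM of H3K4me3 or more. Of these, 24 lay above 0 for Prdm9 het over B6 and 19 below 0 for Ewsr1 CKO over Prdm9 het. The shares of all autosomal sites were 56.3% and 41.0%.

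About as many weak unlisted sites lay inside as outside protein-coding genes. Of the 1439, 698 (48.5%) overlapped a RefSeq protein-coding gene, against 413 (56.3%) of the weak listed sites and 54.1% of all autosomal sites. Among stronger sites the share was 50.2% without listed H3K4me3 and 57.9% with it. Whether a site was exonic or intronic was not analysed here. Within genes the median of Ewsr1 CKO over Prdm9 het was 0.52 (log2 ratio) and outside genes 0.42. That of Prdm9 het over B6 was -0.23 within genes and -0.06 outside.

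The median distance to a stronger hotspot was close in the weak unlisted and the weak listed sites. A stronger hotspot was an autosomal site of the list at or above the B6 limit, and the distance was the gap between interval ends. The median distance was 123 kb, with quartiles of 48.3 and 256 kb and a range of 1.97 kb to 5.02 Mb. For the weak listed sites it was 121 kb, with quartiles of 49.1 and 241 kb. A stronger hotspot lay within 10 kb of 69 weak unlisted sites (4.80%) and 33 weak listed sites (4.50%), and within 50 kb of 366 (25.4%) and 187 (25.5%). Beyond 1 Mb were 15 weak unlisted sites (1.04%) and 4 weak listed sites (0.546%). Both sets had a median of 6 stronger hotspots within 1 Mb. The difference of the median distances, 1.33 kb, had no stable sign: counting as stronger hotspots just those from the B6 upper quartile up, it was -49.3 kb, and over all alternatives it ran up to 11.2 kb.

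**Figure D4:**
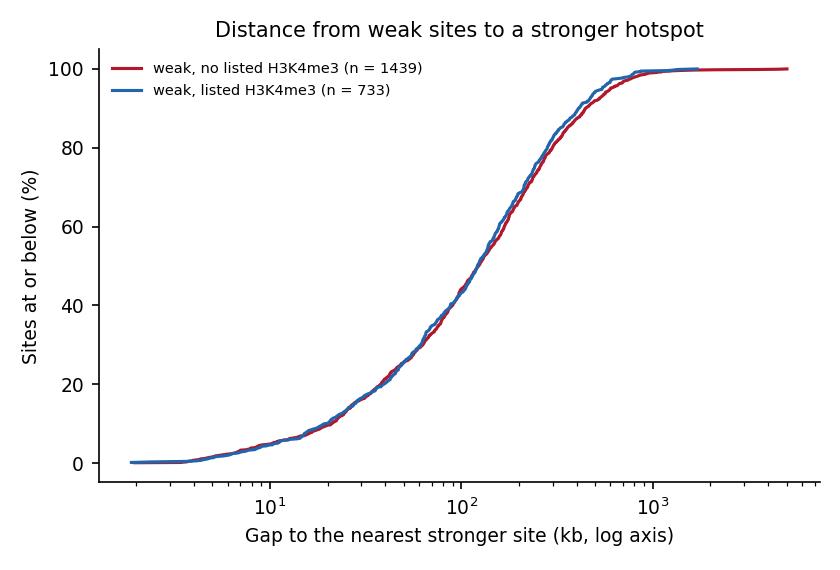
Cumulative share of weak sites (%) against the gap to the nearest stronger hotspot (kb, log axis). The curves of 1439 weak unlisted and 733 weak listed sites run together, with medians of 123 and 121 kb, and part at the far end, where the weak unlisted sites reach 5019 kb and the weak listed sites 1704 kb.

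The stronger neighbours of the weak unlisted sites had a median B6 value of 63.7 RPM, 3.87 times the median of the weak unlisted sites. Of these neighbours 947 (65.8%) overlapped a listed H3K4me3 interval, counted once per weak site, close to the share of all stronger sites that did (4157 of 6572, 63.3%). For the weak listed sites it was 584 (79.7%). A weak site's ratio tracked that of its neighbour to some degree: Spearman's rho over the 1439 pairs was 0.40 for Ewsr1 CKO over B6, 0.21 for Prdm9 het over B6 and 0.29 for Ewsr1 CKO over Prdm9 het. The pairs share libraries and position, and the 1439 sites had 1221 distinct neighbours. Over 4 groups of rising distance the medians were 0.50, 0.50, 0.41 and 0.43 for Ewsr1 CKO over Prdm9 het and lay between 0.30 and 0.35 for Ewsr1 CKO over B6. For Prdm9 het over B6 they were -0.21, -0.19, -0.11 and -0.11.

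The closest pair was inside Phactr3, the gene of a phosphatase and actin regulator. There the weak unlisted site at chr2:178252563-178254300 lay 1.97 kb from a stronger site at chr2:178248644-178250595. The weak site had 22.4, 23.8 and 3.39 RPM of DMC1 (B6, Ewsr1 CKO, Prdm9 het) and the stronger one 24.8, 24.3 and 2.18 RPM, so the B6 limit fell between a pair of sites of nearly equal strength. Next came chr15:29227792-29229446, 3.42 kb from its neighbour, with 18.4, 37.1 and 8.24 RPM against 46.8, 55.2 and 11.9 RPM.

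The sites farthest from a stronger hotspot lay together on chromosome 17. Between 15757222 and 26280855, a stretch of 10.5 Mb, the list had no stronger site and 7 weak ones, and all 7 were weak unlisted sites. Their B6 values ran from 11.1 to 19.5 RPM, their Ewsr1 CKO values from 16.9 to 53.0 RPM and their Prdm9 het values from 1.57 to 7.62 RPM. All 7 were higher in Ewsr1 CKO than in B6, with log2 ratios of 0.07 to 1.88 and a median of 1.07, where the median of all weak unlisted sites was 0.32 and 79.2% of them, and 65.6% of all autosomal sites, lay above 0. The site at the start of Vmn1r235 (chr17:21259746-21261510) was the farthest, at 5.02 Mb, followed by chr17:20324448-20326324 at 4.57 Mb and chr17:22709560-22711419 at 3.57 Mb. The stretch was singled out after its values had been seen. Of the 18 gaps over 3 Mb between stronger sites, 9 held weak sites, 23 in all, and none of these was a weak listed site, where 33.7% of all weak sites were. Of the 23, 14 lay in 2 gaps on chromosome 17. In 8 of the 9 the median Ewsr1 CKO over B6 ratio was above that of all weak unlisted sites, up to 1.37, though most held 1 or 2 sites. The exception, on chromosome 17 from 11142922 to 14349890 (3.21 Mb), held 7 weak unlisted sites with ratios from -0.53 to 0.66 and a median of 0.16.

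The weak unlisted sites were spread over all 19 autosomes and made up from 12.3% of the listed sites (chromosome 5) to 19.9% (chromosome 17). For the ratios that hold Prdm9 het, the difference from the weak listed sites was in the same direction on nearly all of them. Both ratios use the same Prdm9 het column and all autosomes share the same libraries, so the counts below are not independent. For Prdm9 het over B6 the weak unlisted median lay below the weak listed one on 19 of 19 autosomes, with differences of -0.77 to -0.09. For Ewsr1 CKO over Prdm9 het it lay above on 18 of 19, with chromosome 3 the exception at -0.04. For Ewsr1 CKO over B6 it lay above on 5 and below on 14. Chromosome 14 stood apart in level: its 74 weak unlisted sites had medians of 0.88 for Ewsr1 CKO over Prdm9 het and -0.62 for Prdm9 het over B6, and 33 (44.6%) were past 2-fold higher in Ewsr1 CKO than in Prdm9 het, where 8.43% of all autosomal sites and 20.4% of all weak unlisted sites were. The 31 weak listed sites of chromosome 14 had medians of 0.46 and -0.12 for these ratios, and 6 (19.4%) were past 2-fold higher. Without chromosome 14, an alternative added after seeing the data, the weak unlisted medians were 0.45 and -0.13.

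**Figure D5:**
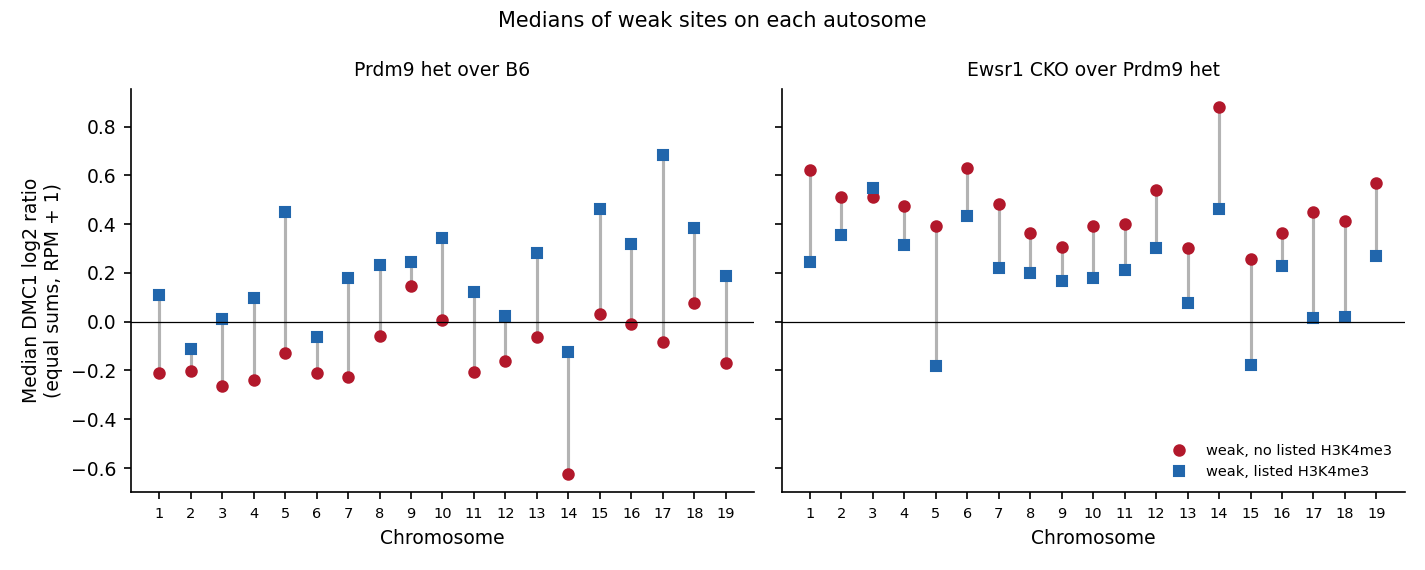
Median log2 DMC1 ratio (columns scaled to equal sums, 1 RPM added) of weak unlisted sites (red circles) and weak listed sites (blue squares) on each of the 19 autosomes. The weak unlisted median is the lower one on every autosome for Prdm9 het over B6 and the higher one on 18 for Ewsr1 CKO over Prdm9 het, with the widest departure from 0 on chromosome 14.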

How the data were processed

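Meiotic spermatocyte chromatin was profiled by ChIP-seq. The authors deposited a DMC1 and an H3K4me3 table, in RPM per the file headers, with 1 value per group and site. The denominator, and how the 2 samples of a group entered its column, are not stated. Per the submitters' processing notes the build was mm10 and the tools included BWA 0.5.10 and Trimmomatic 0.32. The peak caller is not given in the sources used here. Another 4 value columns matched no sample and were not used. Of 5787 H3K4me3 lines, 220 repeated an interval, leaving 5567.

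Columns were mapped to groups by sample titles, overlap meant at least 1 shared base, and the B6 limit of 24.6 RPM was the 25th percentile of autosomal values. Columns were scaled to the B6 sum and log2 ratios used a pseudocount of 1 RPM. Past 2-fold means beyond 1 on the log2 scale either way. The 4 groups of a split were cut at quartiles of each set, or of all weak sites together where both sets were compared within groups. Gene positions and promoters came from RefSeq on GRCm38.p6, the same assembly. GC content and motifs of the sites were not analysed here. The planned description without p-values was used, since 1 value per group allows no test. Functions were tested on simulated data. Software was matplotlib 3.10.9, pandas 2.3.3, scipy 1.17.1, numpy 2.4.6 and Python 3.11.15.

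Named sites were, among members whose mean over the 3 scaled DMC1 columns was at or above the members' median, the 3 highest and 3 lowest of each ratio. Among all members they were the 3 with the highest H3K4me3, the 3 closest to and farthest from a stronger site, the 3 lowest in B6 and the 3 on each side of the limit. The members, lists and rules were chosen with earlier results of these data known. Other scalings, pseudocounts, limits and definitions of a stronger site were tried as alternatives.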

Additional observations from a re-analysis of the deposited data

How the results depend on the processing

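No direction of a median over the weak unlisted sites reversed under any alternative run. The limit set at the lowest 10% of B6 values gave medians of 11.7, 14.7 and 1.78 RPM of DMC1 (B6, Ewsr1 CKO, Prdm9 het) and 0.419 RPM of H3K4me3, and log2 ratios of -0.18 for Prdm9 het over B6 and 0.55 for Ewsr1 CKO over Prdm9 het. The limit at the B6 median gave 22.6, 28.5, 3.69 and 0.506 RPM, ratios of 0.29, -0.10 and 0.42 for Ewsr1 CKO over B6, Prdm9 het over B6 and Ewsr1 CKO over Prdm9 het, and a distance of 185851 bp to a stronger site. Per 1000 bp the levels were 7.86, 10.1, 1.25 and 0.236 RPM. On columns as deposited the ratios that hold Prdm9 het were -2.25 and 2.55, and at equal medians the 3 ratios were 0.093, -0.24 and 0.35. With no pseudocount Ewsr1 CKO over Prdm9 het was 0.51, and without the lowest quartile of members the ratios over B6 were 0.39 and -0.051. The distance was 100370 bp to any site above the weak site itself, 195817 bp to a site at or above the B6 median and 375257 bp to one at or above the upper quartile. Weak unlisted minus weak listed medians ranged over 12 alternatives from 0.19 to 0.31 for Ewsr1 CKO over Prdm9 het, from -0.36 to -0.25 for Prdm9 het over B6 and from -0.05 to 0.006 for Ewsr1 CKO over B6. The difference in distance ranged from -49.3 to 11.2 kb and was also below 0 at the lowest 10% limit (-14.7 kb) and with strength taken from Ewsr1 CKO (-4.52 kb). Listed H3K4me3 within 500 bp changed no membership, and within 5000 bp left 1424 sites. No paired analysis was possible because each column holds 1 value per group with no replicate. For the same reason leaving out replicates was not run. Depth is unknown for Prdm9 het and H3K4me3, so no limit can be set on their lowest values.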
